A study of Mus musculus with 9 samples.

Results

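The CD28 family receptors are surface proteins of T cells that share an immunoglobulin-type outer domain and adjust the signal of the antigen receptor. The 5 genes described here, Cd28, Icos, Ctla4, Pdcd1 and Btla, were chosen by name, with earlier results of these data known. They were read from array rows annotated with that single gene symbol. Each of the 5 had 1 such row, out of 22180 genes measured by a row with 1 symbol. The samples were γδ T cells, which recognise antigen through a γ and a δ chain, of mice on the C57BL/6 background, with no treatment or genetic change named in the labels and no age given. Intraepithelial lymphocytes (IELs) were taken from the intestinal epithelium and 2 subsets, Naive-like and Type-1, from axillary, brachial and inguinal lymph nodes, with 3 Affymetrix Mouse Gene 2.0 ST arrays for each of the 3 subsets, 9 arrays in all. Tissue and subset cannot be told apart in any comparison with IELs. Arrays are labelled biological replicates, but whether an array stands for 1 animal or several is not given, and p-values reflect only how these samples vary. IELs were shaken out of the tissue in a warm buffer with a reducing agent, and lymph nodes were mashed, so preparation differs along with tissue. Antibodies to the CTLA-4 and PD-1 proteins stand in the labels' staining list, and whether either was used to sort the subsets is not given in the sources used here.

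CD28 and ICOS are costimulatory receptors, which add to antigen receptor signals through phosphoinositide 3-kinase. CTLA-4 binds CD80 and CD86, the ligands of CD28, with higher affinity than CD28 does and so limits costimulation. PD-1, encoded by Pdcd1, and BTLA recruit tyrosine phosphatases that dampen receptor signals; PD-1 binds PD-L1 and PD-L2, and BTLA binds HVEM. Resting T cells typically carry CD28 and BTLA, whereas CTLA-4, ICOS and PD-1 are typically induced by activation, and many intestinal intraepithelial T cells are known to lack CD28.

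All levels and differences are on the log2 scale of the authors' normalized array values, on which a difference of 1 is a doubling. Differences are followed by their standard error, from 3 arrays in each subset. A difference passed the test when limma's Benjamini-Hochberg adjusted p over all 22180 genes was under 0.05. The table has no detection calls, so a low level has no stated background, and levels of different genes come from different probes and were not ranked against each other. Fewer expressing cells and less RNA per cell cannot be told apart in these bulk samples.

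Cd28, Ctla4 and Icos follow each other in this order on chromosome 1 with no other protein-coding gene between them in RefSeq's annotation of GRCm38.p6, while Pdcd1 lies elsewhere on chromosome 1 and Btla on chromosome 16. RefSeq's promoter table held 3 of the 5 genes, Ctla4, Pdcd1 and Btla. The 250 bases before the start of Ctla4 are shown because Ctla4 was the 1 gene of this neighbourhood that was higher in IELs. They lie at chr1:60908775-60909024 (GRCm38.p6, plus strand), with the capitals marking the core that NFAT factors recognise, GGAAA on either strand.
Ctla4 upstream region: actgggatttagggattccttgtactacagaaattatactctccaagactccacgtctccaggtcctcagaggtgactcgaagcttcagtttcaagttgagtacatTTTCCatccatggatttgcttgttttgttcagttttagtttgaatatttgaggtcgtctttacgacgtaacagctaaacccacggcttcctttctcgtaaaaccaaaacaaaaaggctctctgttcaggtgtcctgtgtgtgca
The single match began 144 bases before the start, and 55.6% of 27025 upstream regions of this length held 1. The Pdcd1 region held 2 matches and the Btla region none. The Btla region lies downstream of another RefSeq transcript start, and the bases before that start were not searched. TATAAA, the AP-1 letters TGANTCA, the FOXO letters GTAAACA and the TCF/LEF letters TTCAAAG, searched on both strands, had no match in the 3 regions. They occurred in 13%, 6.87%, 3.09% and 4.64% of all such regions.

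Cd28, the founding costimulatory receptor of the family, was lower in IELs than in either lymph node subset. Its level was 3.96, 4.09 and 4.79 on the 3 IEL arrays, 6.06, 5.91 and 6.58 on the Naive-like arrays and 6.14, 5.92 and 6.28 on the Type-1 arrays. Every IEL array lay more than 1 log2 unit below every lymph node array, and the lymph node subsets overlapped. The IEL mean of 4.28 ± 0.45 (SD, n = 3) stood against 6.18 ± 0.35 in Naive-like and 6.11 ± 0.18 in Type-1 cells. Cd28 fell by 1.90 ± 0.26 in IELs against Naive-like cells (limma adjusted p = 0.000637), a level 3.74-fold lower. It fell by 1.83 ± 0.26 against Type-1 cells (adjusted p = 0.000982), a level 3.56-fold lower. Between Type-1 and Naive-like cells the difference was -0.07 ± 0.26, with a 95% confidence interval from -0.64 to 0.49 (adjusted p = 0.986), and its sign turned when the arrays were quantile-normalized again (0.016).

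Icos, the inducible costimulator, was lower in IELs than in Type-1 cells and passed in no other comparison. Its level was 6.80, 6.78 and 5.87 on the Type-1 arrays, 5.27, 5.86 and 5.49 on the Naive-like arrays and 5.12, 4.82 and 5.69 on the IEL arrays. Type-1 replicate 3 stood apart from the other Type-1 arrays, only just above the highest Naive-like array. The Type-1 mean was 6.49 ± 0.53 (SD, n = 3), against 5.54 ± 0.30 in Naive-like cells and 5.21 ± 0.44 in IELs. Icos was lower in IELs than in Type-1 cells by a log2 difference of -1.27 ± 0.30 (limma adjusted p = 0.0284). The Type-1 arrays lay wholly above the Naive-like arrays too, but the difference of 0.95 ± 0.30 did not pass (unadjusted p = 0.00846 from the limma fit, adjusted p = 0.466; 95% confidence interval 0.29 to 1.60). IELs and Naive-like cells overlapped, with a difference of -0.33 ± 0.30 (adjusted p = 0.757; 95% confidence interval -0.98 to 0.33).

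The Icos call between IELs and Type-1 cells held in 5 of the 9 fits that left out 1 array, with differences from -1.58 to -1.08. It was lost without IEL replicate 1 (-1.23, limma adjusted p = 0.0747), IEL replicate 2 (-1.08, adjusted p = 0.131), Type-1 replicate 1 (-1.12, adjusted p = 0.102) or Type-1 replicate 2 (-1.12, adjusted p = 0.108). It was also lost when the fit held those 2 subsets alone (adjusted p = 0.0617) or all 41345 array rows (adjusted p = 0.0992). In each subset the description of replicate 3 alone bears a date code. Among the 6 arrays lacking it the difference was -1.82 (adjusted p = 0.0144), and between the date-coded arrays, 1 per subset, it was -0.18.

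**Figure D1:**
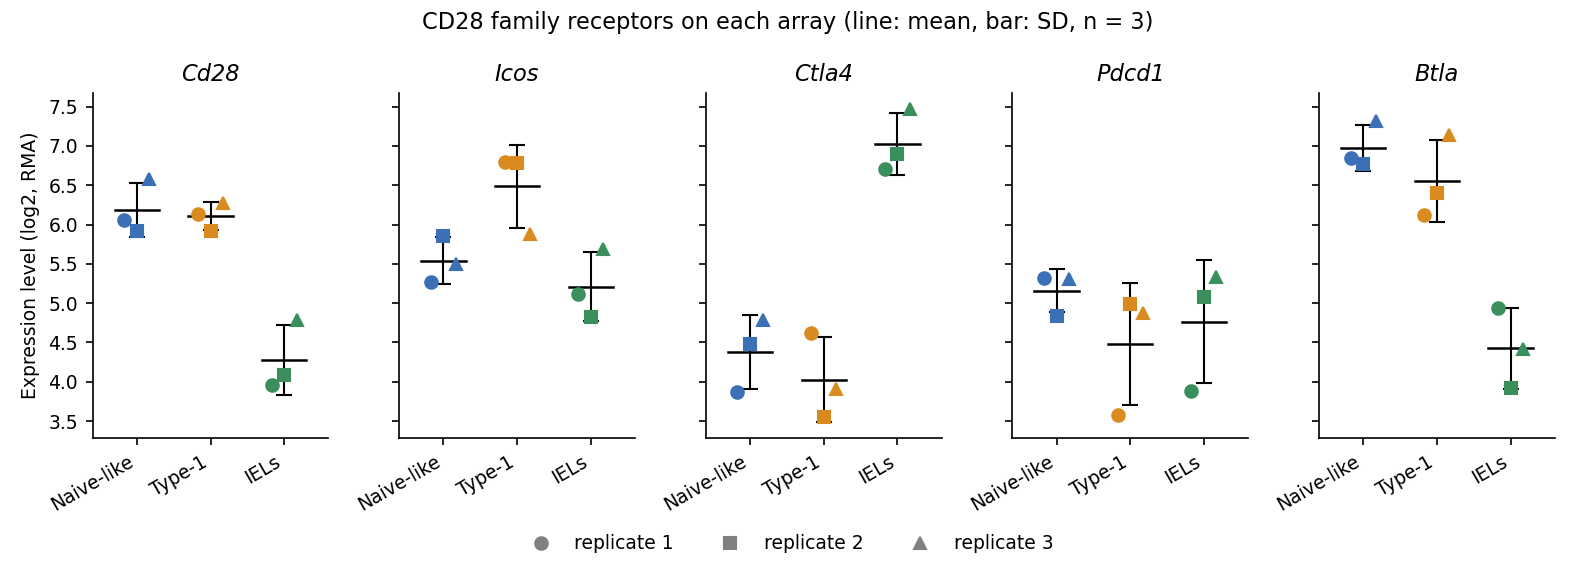
Expression level (log2) of the 5 receptor genes on each of the 9 arrays, by subset, with symbols for the replicate number, lines for subset means and bars for the SD (n = 3). Cd28 and Btla are low and Ctla4 high on all 3 IEL arrays, Icos is highest on Type-1 replicates 1 and 2, and the Pdcd1 levels of the subsets overlap.

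Ctla4, the inhibitory counterpart of Cd28, was the 1 gene of the 5 that was higher in IELs. Its level was 6.70, 6.90 and 7.47 on the IEL arrays, against 3.87, 4.48 and 4.78 in Naive-like and 4.62, 3.55 and 3.91 in Type-1 cells. The lowest IEL array lay almost 2 log2 units above the highest lymph node array. Means were 7.02 ± 0.40 (SD, n = 3) in IELs, 4.38 ± 0.47 in Naive-like and 4.03 ± 0.54 in Type-1 cells. Ctla4 rose in IELs by 2.65 ± 0.32 against Naive-like cells (limma adjusted p = 0.000258), or 6.26-fold, and by 3.0 ± 0.32 against Type-1 cells (adjusted p = 0.000111), or 7.98-fold. Type-1 and Naive-like cells differed by -0.35 ± 0.32 (adjusted p = 0.920), with a 95% confidence interval from -1.04 to 0.35.

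Pdcd1, which encodes PD-1, passed no test. Its level was 3.88, 5.08 and 5.33 on the IEL arrays, 5.33, 4.84 and 5.30 on the Naive-like arrays and 3.58, 4.98 and 4.87 on the Type-1 arrays. The low values were replicate 1 of the IELs and of the Type-1 cells, and all 3 subsets overlapped. The differences were -0.39 ± 0.41 for IELs against Naive-like cells (95% confidence interval -1.29 to 0.51), 0.29 ± 0.41 for IELs against Type-1 cells (-0.61 to 1.19) and -0.68 ± 0.41 between Type-1 and Naive-like cells (-1.58 to 0.22). The sign of the difference turned without IEL replicate 1 against Naive-like cells (0.053) and without Type-1 replicate 1 between IELs and Type-1 cells (-0.16).

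Btla, an inhibitory receptor that binds HVEM, had the largest decrease of the 5 in IELs against Naive-like cells. Its level was 4.94, 3.92 and 4.41 on the IEL arrays, 6.84, 6.77 and 7.31 on the Naive-like arrays and 6.12, 6.40 and 7.14 on the Type-1 arrays. The highest IEL array lay more than 1 log2 unit below the lowest lymph node array. Means were 4.43 ± 0.51 (SD, n = 3), 6.98 ± 0.29 and 6.55 ± 0.52 in this order. Btla fell by 2.55 ± 0.31 in IELs against Naive-like cells (limma adjusted p = 0.000282), a level 5.86-fold lower, and by 2.13 ± 0.31 against Type-1 cells (adjusted p = 0.00128), 4.37-fold lower. Type-1 and Naive-like cells differed by -0.42 ± 0.31 (adjusted p = 0.896; 95% confidence interval -1.10 to 0.26).

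By comparison, 3 of the 5 receptors passed the limma test for IELs against Naive-like cells, where 5.19% of all genes did (3.57% higher and 1.62% lower in IELs). Ctla4 was higher and Cd28 and Btla were lower. For IELs against Type-1 cells 4 of 5 passed, where 5.14% of all genes did (3.73% higher and 1.41% lower in IELs), and Icos joined those lower. These comparisons share the IEL arrays. The receptors were chosen with earlier results of these data known, so their counts beside those of all genes carry no test. For Type-1 against Naive-like cells limma called none of the 5, where 0.284% of all genes passed (0.212% higher and 0.0721% lower in Type-1 cells), and 1 of the 5 (Icos) and 1437 of all genes had an unadjusted p under 0.05. The arrays of the compared subsets did not overlap for 3, 4 and 1 of the 5 receptors in this order, against 20.1%, 19.8% and 11.4% of all genes. In the F test over the 3 subsets, in which 5.41% of all genes passed, adjusted p-values were 0.000694 for Cd28, 0.000137 for Ctla4 and 0.000455 for Btla. Icos, at 0.0558, and Pdcd1, at 0.699, did not pass it. The calls of Cd28, Ctla4 and Btla against both lymph node subsets held without each array in turn and among the 6 arrays lacking the date code. There the differences for IELs against Naive-like cells were -1.96, 2.63 and -2.38, and those between the date-coded arrays -1.79, 2.69 and -2.90. Against Type-1 cells they were -2.0, 2.72 and -1.83 without the code, and -1.49, 3.56 and -2.72 with it.

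**Figure D2:**
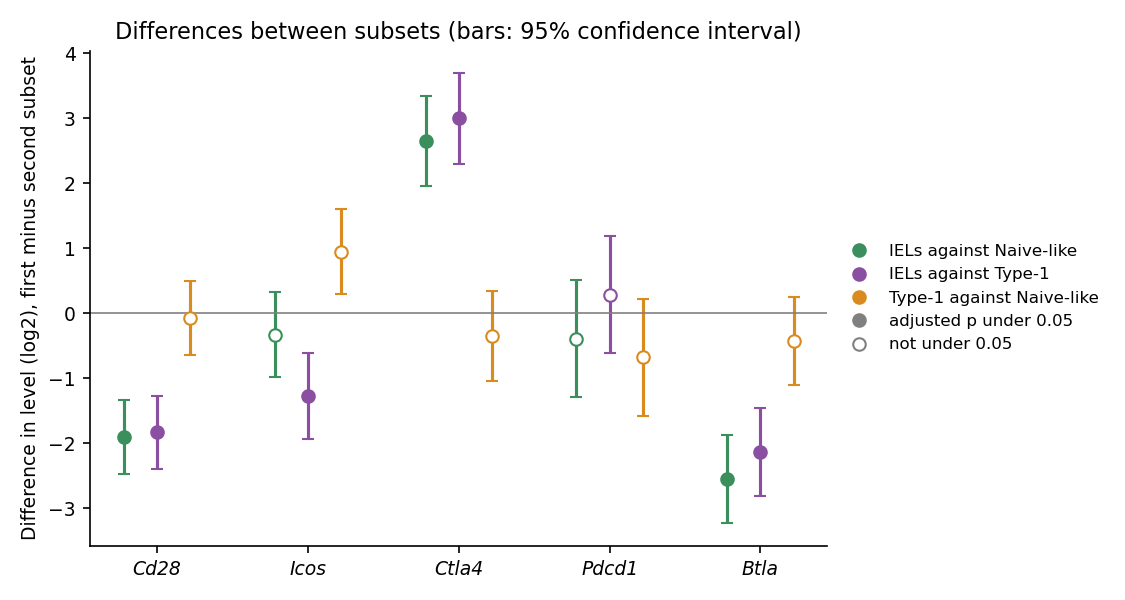
Difference in level (log2) for each receptor gene in the 3 pairwise comparisons, with bars for the 95% confidence interval and filled points for a limma adjusted p under 0.05. The intervals of Cd28, Ctla4 and Btla clear 0 in both comparisons with IELs. Between the lymph node subsets the interval of Icos alone clears 0, with an open point.

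The difference between a pair of these genes within an array removes any shift that all genes of the array share, but not other effects of normalization. The pairs were chosen with the genes' own differences known, so these values describe the same changes and carry no test. Ctla4 minus Cd28 was 2.75, 2.81 and 2.68 on the IEL arrays, a mean of 2.74 ± 0.06 (SD, n = 3). It was -1.81 ± 0.38 on the Naive-like and -2.08 ± 0.49 on the Type-1 arrays. Where it crosses 0 has no meaning, because the probes of the 2 genes differ. Ctla4 minus Btla moved the same way, from -2.60 ± 0.35 in Naive-like and -2.53 ± 0.91 in Type-1 cells to 2.6 ± 0.73 in IELs.

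Icos minus Cd28 was 1.16, 0.73 and 0.90 on the IEL arrays and -0.79, -0.06 and -1.09 on the Naive-like arrays, which did not overlap. On the Type-1 arrays it was 0.66, 0.86 and -0.40, overlapping both. Cd28 minus Btla overlapped between all subsets, with means of -0.15 ± 0.73 (SD, n = 3) in IELs, -0.79 ± 0.06 in Naive-like and -0.44 ± 0.44 in Type-1 cells. Over the 9 arrays Cd28 and Btla had a Pearson correlation of 0.922, and Ctla4 had -0.852 with Cd28 and -0.892 with Btla. Icos had 0.562 with Cd28 and -0.551 with Ctla4, while the correlations of Pdcd1 with the other receptors lay between -0.333 and 0.169. These correlations are descriptions, since the arrays of a subset share its level.

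**Figure D3:**
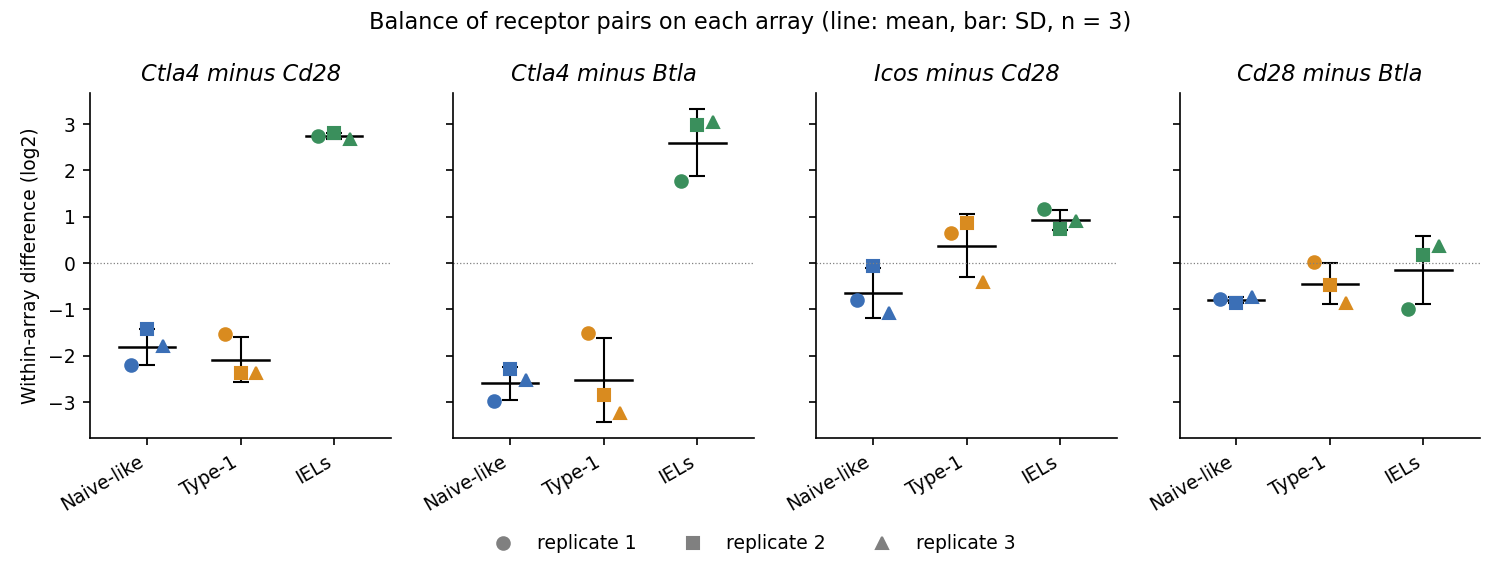
Difference in level (log2) between a pair of receptor genes within each array, by subset, with lines for means and bars for the SD (n = 3). Ctla4 minus Cd28 lies between 2.68 and 2.81 on the IEL arrays and below -1.4 on every lymph node array.

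The receptors' ligands were also read in the γδ T cells themselves. Of 10 listed ligands and binding partners, Cd80 and Cd160 were higher in IELs against either lymph node subset, none was lower and 8 did not pass; the median difference was 0.04 against Naive-like cells, where that of all genes was -0.01. Cd80, a ligand of both CD28 and CTLA-4, was at 5.10, 4.47 and 4.53 on the IEL arrays, above all Naive-like arrays (3.03 to 3.58) and all Type-1 arrays (2.65 to 3.46). It rose by 1.39 ± 0.27 against Naive-like cells (limma adjusted p = 0.00719) and by 1.57 ± 0.27 against Type-1 cells (adjusted p = 0.00361). Cd86, the other ligand of that pair, lay lower on the IEL arrays, at 4.06, 4.61 and 4.85, than on the Naive-like (5.27 to 5.95) and Type-1 arrays (4.95 to 5.83). Its differences of -0.99 ± 0.30 and -1.02 ± 0.30 did not pass (adjusted p = 0.0925 and 0.0836).

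Cd160, a receptor that binds HVEM as BTLA does, rose in IELs by 2.04 ± 0.22 against Naive-like cells (limma adjusted p = 0.000106) and by 1.26 ± 0.22 against Type-1 cells (adjusted p = 0.00439). Its IEL mean was 7.81 ± 0.24 (SD, n = 3), against 5.77 ± 0.20 and 6.55 ± 0.29. Tnfrsf14, the gene of HVEM, differed by 0.03 ± 0.22 and 0.20 ± 0.22, with 95% confidence intervals from -0.44 to 0.51 and from -0.28 to 0.67. Cd274, the gene of PD-L1, differed by 0.25 ± 0.25 and 0.70 ± 0.25 (adjusted p = 0.786 and 0.165). Pdcd1lg2, the gene of PD-L2, differed by 0.04 ± 0.22 and 0.12 ± 0.22, and Icosl, the gene of the ICOS ligand, by 0.30 ± 0.31 and 0.06 ± 0.31. No ligand or partner passed between Type-1 and Naive-like cells, where the median of the 10 was 0.08. Of 8 measured relatives of the receptors or ligands, such as Vsir, Cd276 and butyrophilin genes, none passed in any comparison.

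Among 33 measured genes of the signalling path below CD28 and ICOS, 3 were higher and 2 lower in IELs against Naive-like cells, 2 and 2 against Type-1 cells, and none passed between the lymph node subsets. The medians were -0.07, 0.13 and -0.13, beside -0.01, -0.03 and 0.03 over all genes. Pik3cb, a catalytic subunit of phosphoinositide 3-kinase, was at 7.77 ± 0.48 (SD, n = 3) in IELs, 5.08 ± 0.16 in Naive-like and 5.15 ± 0.31 in Type-1 cells. It rose by 2.70 ± 0.26 and 2.63 ± 0.26 (limma adjusted p = 4.03e-05 and 6.08e-05). Rel, an NF-κB subunit activated by CD28 costimulation, rose by 1.36 ± 0.28 and 1.40 ± 0.28.

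In the other direction, Prkcq, the gene of a protein kinase C that CD28 helps to bring to the immune synapse, fell by 1.98 ± 0.21 in IELs against Naive-like and by 1.63 ± 0.21 against Type-1 cells. Cd2ap, an adaptor that binds the tail of CD2, fell by 2.35 ± 0.29 and 1.97 ± 0.29. The other 28 and 29 genes of the list in these comparisons, among them Pik3cd, Vav1, Grb2 and the T-cell scaffold gene Carmil2, did not pass.

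Of 24 genes for inhibitory signalling and for the transport of these receptors, 3 were higher and 2 lower in IELs against Naive-like cells, and 4 and 2 against Type-1 cells. The list's medians were 0.10 and 0.21. Trat1, the gene of an adaptor that binds CTLA-4 and helps to carry it to the cell surface, was the 1 gene of this list that also passed between the lymph node subsets. Its mean was 9.99 ± 0.21 (SD, n = 3) in IELs, 8.49 ± 0.06 in Naive-like and 6.88 ± 0.39 in Type-1 cells, with no overlap of arrays. It rose in IELs by 1.49 ± 0.22 and 3.11 ± 0.22, and it fell by 1.62 ± 0.22 in Type-1 against Naive-like cells (limma adjusted p = 0.00673). Ctla4 itself did not pass in that last comparison.

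Swap70, which encodes a guanine nucleotide exchange factor related to DEF6, rose in IELs by 2.18 ± 0.27 against Naive-like and 1.98 ± 0.27 against Type-1 cells. Dgka, a diacylglycerol kinase that limits T-cell activation, fell by 2.34 ± 0.27 and 1.95 ± 0.27, and Lyst, a regulator of lysosome transport, by 1.68 ± 0.32 and 2.75 ± 0.32. The phosphatase gene Ptpn11, whose product SHP-2 binds the tail of PD-1, was 1.18 ± 0.31 higher in IELs than in Type-1 cells (limma adjusted p = 0.0486) and did not pass against Naive-like cells. Lrba, which protects CTLA-4 from lysosomal decay, and Ptpn6, the gene of SHP-1, passed in no comparison.

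**Figure D4:**
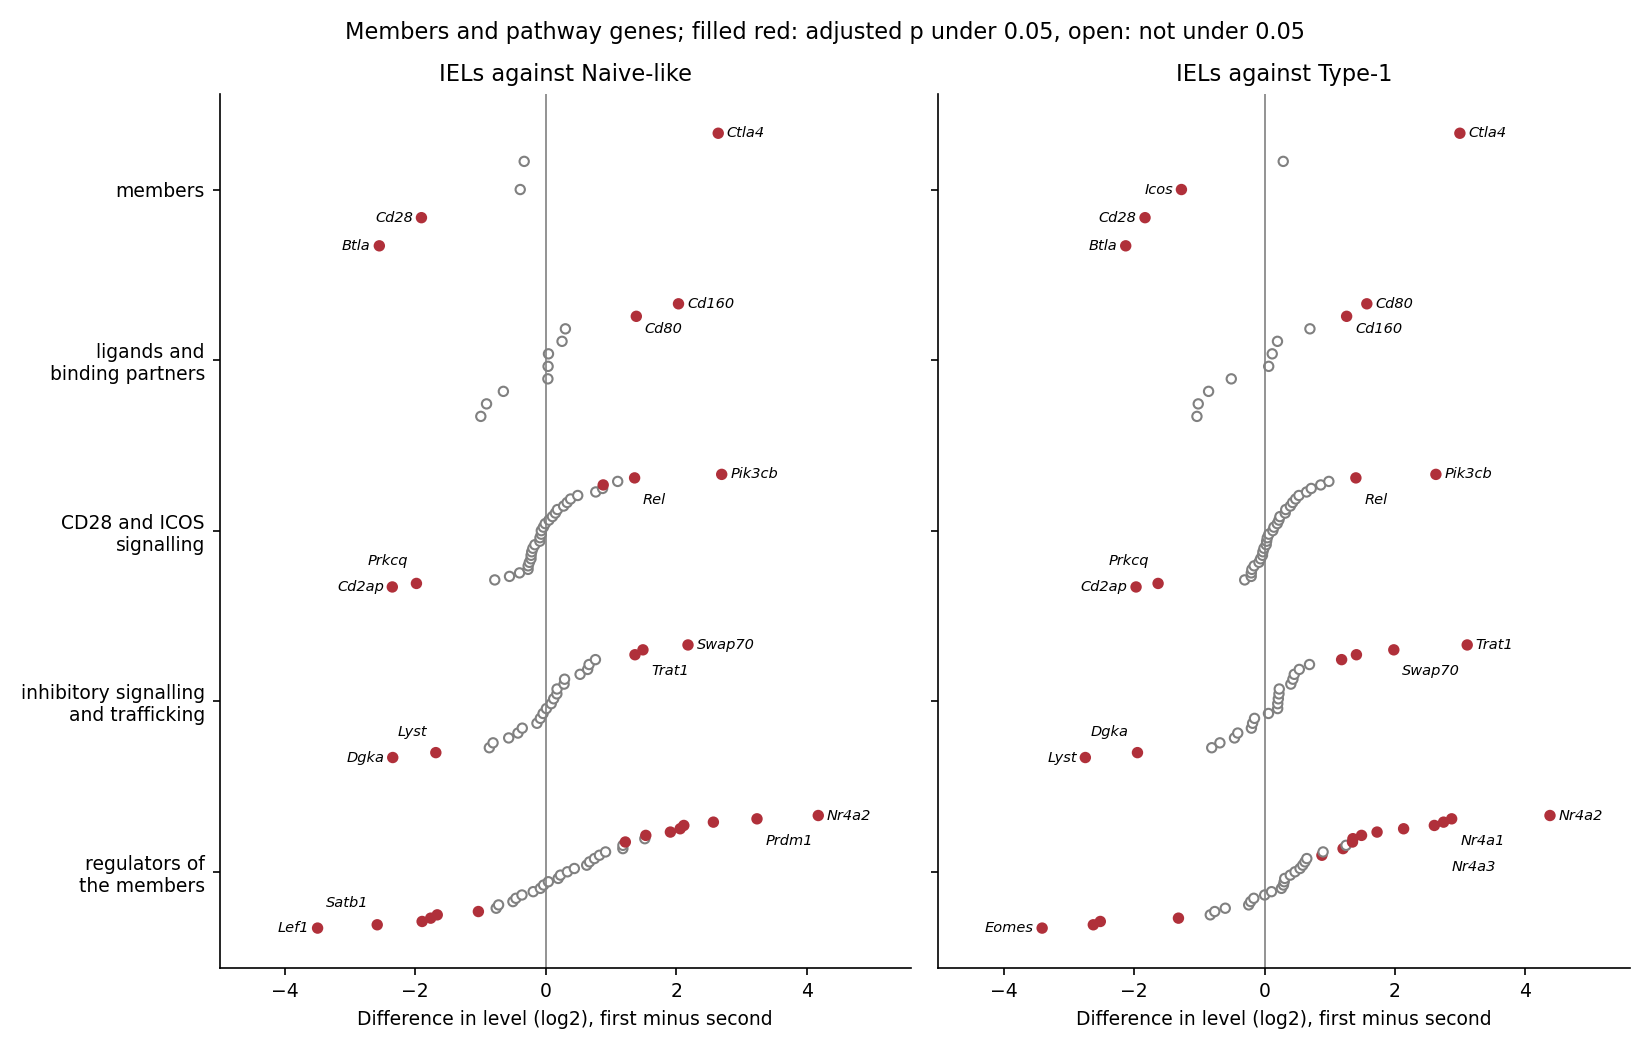
Difference in level (log2) of the 5 receptor genes and the listed ligands, signalling genes, trafficking genes and regulators, for IELs against Naive-like cells (left) and against Type-1 cells (right). Filled points had a limma adjusted p under 0.05, and up to 4 of them per list are named, such as Trat1 at 1.49 and 3.11.

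The list of 35 measured regulators known to act on the transcription or mRNA of these receptors moved in both directions. In IELs 8 were higher and 6 lower against Naive-like cells, 11 and 4 against Type-1 cells, and 2 were higher in Type-1 than in Naive-like cells. The medians were 0.33, 0.47 and -0.12. Nr4a2, an orphan nuclear receptor gene induced by antigen receptor signals, rose in IELs by 4.18 ± 0.44 and 4.38 ± 0.44, and Prdm1, the gene of the repressor Blimp-1, rose by 3.24 ± 0.25 against Naive-like cells. Lef1 and Satb1, transcription factor genes of naive T cells, fell by 3.50 ± 0.25 and 2.58 ± 0.29 against Naive-like cells. Prdm1, Lef1 and Satb1 passed in the same direction against Type-1 cells. The means of Lef1 and Satb1 were 8.40 and 8.39 in Type-1 cells, against 5.77 and 5.87 in IELs.

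Tbx21, the gene of T-bet, which can repress Pdcd1, rose by 1.95 ± 0.29 and Eomes by 1.52 ± 0.27 in Type-1 against Naive-like cells (limma adjusted p = 0.0116 and 0.0350), a comparison in which none of the 5 receptors passed. In IELs against Naive-like cells Tbx21 was also higher (means 8.29 and 5.72) and Eomes was lower (4.05 and 5.95), and both passed. Against Type-1 cells Nr4a1 and Nr4a3 rose in IELs by 2.87 ± 0.36 and 2.75 ± 0.52, and Eomes fell by 3.41 ± 0.27. Rc3h1, the gene of Roquin-1, which destabilises Icos mRNA, passed in no comparison. Foxp3, a factor of regulatory T cells, which carry much CTLA-4, was at 3.73 to 4.14 on the IEL arrays and 3.92 to 4.49 on the lymph node arrays and passed in no comparison either.

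Candidates for likeness were 1433 protein-coding genes whose subset means spanned at least 1 log2 unit, the highest being above the median of all genes. For each receptor the 3 candidates with the most similar pattern over the 9 arrays were taken. For Cd28 they were Cd84 (Pearson r = 0.992), Tecpr1 (0.990) and Slamf6 (0.990), Cd84 and Slamf6 being receptors of the SLAM family. For Ctla4 they were Tiparp (0.986), Gadd45b (0.984) and Nr4a2 (0.979). For Btla they were the interferon-inducible genes Ifi213 (0.992) and Ifit1 (0.986), and Emp3 (0.972). The 9 points share 3 subset levels, and these values carry no test.

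The likeness was weaker for the other receptors. For Pdcd1 the largest difference between subsets (-0.68, Type-1 against Naive-like cells) was under the 1 log2 unit asked of the candidates. That rule favours a weaker likeness for it. For Icos the highest correlations were with Olfr285 (0.904), Tlr3 (0.895) and Anxa1 (0.881), and for Pdcd1 with Pip4k2b (0.888), Ptma (0.835) and Fam8a1 (0.828). None of these 3 genes near Pdcd1 passed in any comparison, which choosing them by likeness to Pdcd1, a gene that did not pass, makes likely.

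Markers of cell identity were read beside these results. The T-cell genes Cd3e, Cd3d, Cd3g and Ptprc, the 4 of 10 listed γδ T-cell markers with a row of 1 symbol, were at 10.06 to 12.32 on all arrays. Of these, Cd3g was higher in IELs than in Type-1 cells by 0.99 ± 0.23 (limma adjusted p = 0.0269), and no other passed in any comparison. The receptor chain genes of the list were not analysed here. Cd4 lay at 3.10 to 3.81 and Cd40lg at 2.91 to 4.57, and neither passed. Of 8 B-cell markers, a cell type that carries much BTLA, none passed in any comparison, and their summed level (log2) was 7.11 to 7.68 in IELs, 7.34 to 7.54 in Naive-like and 7.17 to 7.51 in Type-1 cells. Ms4a1, the gene of CD20, was at 2.90 to 3.47 on all arrays.

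Of 7 regulatory T-cell markers none passed against Naive-like cells, and Ikzf2 and Ikzf4 were higher in IELs than in Type-1 cells. Their summed level was 9.34 to 9.59 in IELs, 8.76 to 9.27 in Naive-like and 9.02 to 9.47 in Type-1 cells. Of 3 follicular helper T-cell genes, which accompany high ICOS, Cxcr5 was lower and Bcl6 higher in IELs than in Type-1 cells. Of 5 natural killer and innate lymphoid markers, 3 were higher and 1 lower in IELs against Naive-like cells, 3 higher in Type-1 than in Naive-like cells and 3 lower in IELs than in Type-1 cells.

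Markers of intestinal epithelium moved with the contrasts in which Ctla4, Cd28 and Btla passed. Of 12 such genes 9 were higher in IELs against either lymph node subset, while Vil1, Cldn7 and Muc2 did not pass. The summed level of the 12 (log2) was 10.49 to 11.38 in IELs, 8.11 to 8.23 in Naive-like and 8.18 to 8.33 in Type-1 cells. Defa24 and Cdh1 had the highest means of these genes in IELs (9.05 and 8.57) and weigh most in that sum. Of 10 dendritic and myeloid markers Itgax and Itgam were higher in IELs against either lymph node subset, and the other 8 did not pass. The summed level was 9.80 to 10.10 in IELs, 7.74 to 9.01 in Naive-like and 7.89 to 8.66 in Type-1 cells. Itgax had the list's highest mean in IELs (9.29, against 4.42 in Naive-like and 5.34 in Type-1 cells) and weighs most in the IEL sum. No marker is at 0, since the values have no true zero. Within the IELs, the mean level of the epithelial genes was 6.29, 6.88 and 6.13 on replicates 1 to 3. On replicate 2, where it was highest, Btla (3.92) and Icos (4.82) had their lowest IEL level. On replicate 3, where it was lowest, Cd28 (4.79), Ctla4 (7.47), Icos (5.69) and Pdcd1 (5.33) had their highest. Replicate 1, where it was intermediate, held the lowest IEL level of Cd28 (3.96), Ctla4 (6.70) and Pdcd1 (3.88) and the highest of Btla (4.94). The receptors did not share 1 order over these 3 arrays, which are too few to relate a receptor to the epithelial genes. The part of epithelial or myeloid RNA, of the activation genes around Nr4a2 and of the different tissue preparations in the receptors' differences was not tested.

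**Figure D5:**
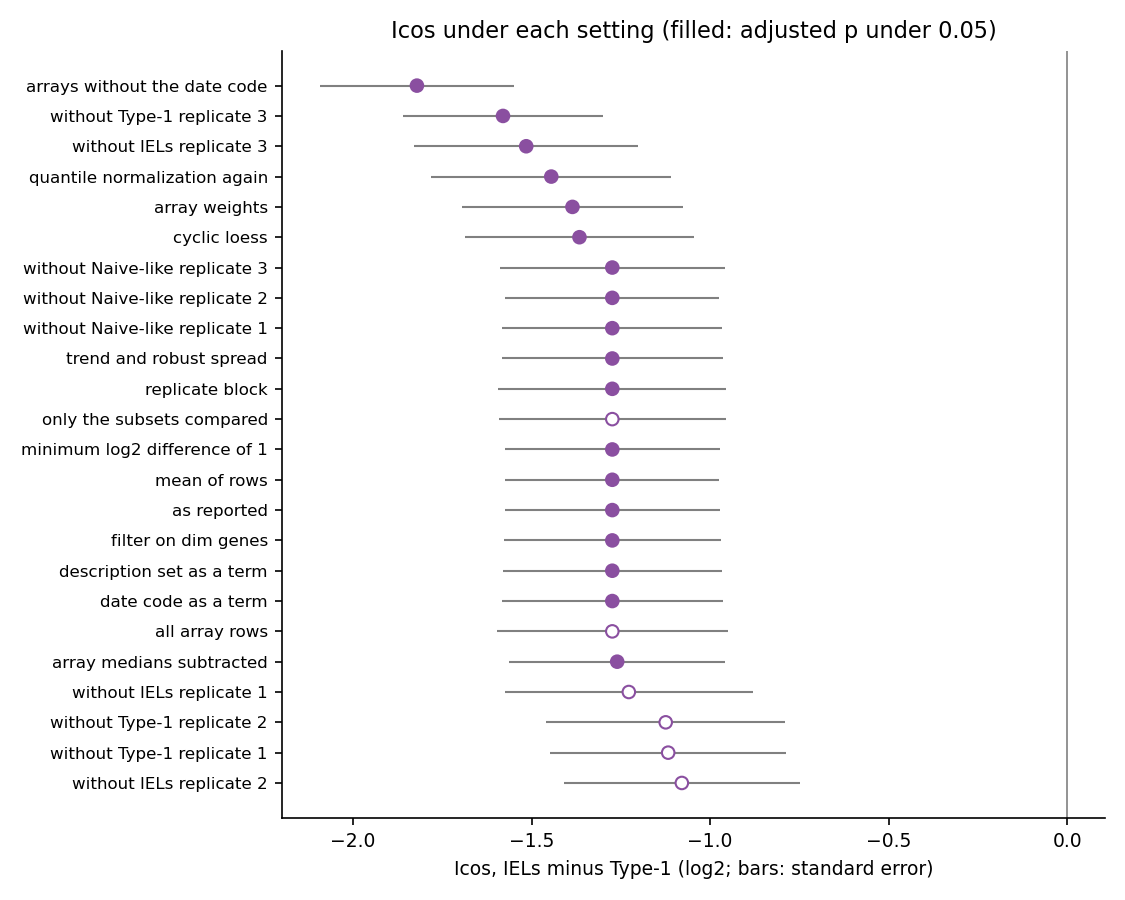
Difference of Icos (log2, IELs minus Type-1) as reported and under each of 23 other settings, with bars for the standard error and filled points for a limma adjusted p under 0.05. All values lie below 0, between -1.82 and -1.08, and 6 of the 23 are open.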

How the data were processed

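Deposited log2 values of 41345 array rows on 9 arrays were used. Per the submitters' processing notes the authors made them with oligo and RMA, a method of background correction, quantile normalization and probe summary; its version and filters were not given in the sources used here. RMA compresses differences of dim genes. Array medians lay between 4.25 and 4.43, and correlations within a subset between 0.947 and 0.982. GEO's platform annotation named the rows. Those with 1 symbol gave 22180 genes, the row of highest mean standing for a gene with several.

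The test was limma 3.58.1 in R 4.3.3 (1 mean per subset over all 9 arrays, pairwise contrasts, an F test, eBayes, two-sided, Benjamini-Hochberg over 22180 genes, threshold 0.05), and the fit was tested on simulated data. The number of arrays limits the precision. Tables and plots used Python 3.11.15, pandas 2.3.3, numpy 2.4.6 and matplotlib 3.10.9. Upstream sequences came from RefSeq (GRCm38.p6).

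Named genes were all 5 receptors and their ligands, up to 4 passing genes per list and comparison by size of difference, and the 3 most correlated genes per receptor. Ptpn11 was named beyond this limit, although Pld1, which passed with a larger difference from Type-1 cells, was not. Some genes named by this rule, such as Tbx21, Eomes and Lef1, were also given in a further comparison. Genes named as not passing are examples chosen after their values were seen. Members and lists were chosen with earlier results of these data known. Alternatives were a filter on dim genes, a minimum log2 difference of 1, other normalizations and spread models, array weights, other rows, blocks and arrays left out.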

Additional observations from a re-analysis of the deposited data

How the results depend on the processing

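The calls of Cd28, Ctla4 and Btla in IELs against either lymph node subset, and in the F test, held under every alternative run (23 per pairwise comparison, 21 for the F test). Of these, a minimum log2 difference of 1 used the reported fit and could change no call of the 5 genes, since all called differences exceeded 1. Averaging a gene's rows left the values of the 5 genes unchanged, since each had 1 row. It could move only the shared spread and the adjusted p. Icos against Type-1 cells kept its sign in 23 of 23 and its call in 17. It was lost over all array rows (-1.27, adjusted p = 0.0992) and with only the subsets compared (-1.27, adjusted p = 0.0617), with fewer arrays or more rows in the fit, and ranged from -1.58 to -1.08 with single arrays left out. In the F test Icos passed with the filter on dim genes (adjusted p = 0.0387), array weights (0.0304) and the arrays without the date code (0.0285), and ranged from 0.0135 to 0.198 with single arrays left out. Some differences that did not pass changed sign. Cd28 in Type-1 against Naive-like cells was 0.016 with quantile normalization again, 0.042 in the arrays without the date code and -0.21 to 0.12 with single arrays left out. Pdcd1 ranged from -0.67 to 0.053 for IELs against Naive-like and from -0.16 to 0.73 for IELs against Type-1 cells with single arrays left out. The cause was not tested.

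Same-numbered replicates did not deviate together throughout (6 of 9 pairs above a correlation of 0.1, range -0.01 to 0.38), so the numbers were not taken as pairs. Grouped instead by the sets of running numbers in the sample descriptions, whose meaning is not given, all 9 pairs were positive (0.07 to 0.38, 6 above 0.1) against -0.29 to 0.12 for other pairs. With the description set as a term no call of the 5 genes changed, and Icos between IELs and Type-1 cells had an adjusted p of 0.0371. With the replicate block no call of the 5 genes changed, and Icos between IELs and Type-1 cells stayed at -1.27 (adjusted p = 0.0447). Counts over all genes moved by more than 1.5 times with array weights (1920 against 1152 for IELs against Naive-like cells, 1884 against 1200 in the F test). In the arrays without the date code they were 534, 565 against 1140, 20 against 63, and 527. Over all array rows 35 passed for Type-1 against Naive-like cells. With single arrays left out they ranged from 724 to 1308 for IELs against Type-1, 34 to 87 between the lymph node subsets and 771 to 1392 in the F test. The counts that fell by more than 1.5 times were those without IEL replicate 2 (732 and 771), IEL replicate 3 (724 and 778) and Naive-like replicate 3 (34). Depth does not apply to arrays, and without detection calls the signal over background is unknown.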
